A study of Mus musculus with 6 samples.

Results

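A set of 10 genes that mark the lining cells of blood vessels were followed through the bone marrow (BM) transcriptomes of *Phc2* knockout (KO) and wild-type (WT) mice. These are *Kdr*, *Flt4*, *Cdh5*, *Cldn5*, *Esam*, *Ecscr*, *Aplnr*, *Gpihbp1*, *Gpr182* and *Esm1*, chosen by symbol as vascular endothelial growth factor (VEGF) receptors, junction proteins and vessel-type genes, and all 10 of them are among the 621 genes of the deposited table. BM cells were taken from the leg bones (femur and tibia) of C57BL/6 mice aged 8 weeks, and poly(A) RNA was sequenced from 3 KO libraries, here KO4, KO8 and KO9 after their replicate numbers, and from 3 WT libraries, WT1, WT3 and WT7. *Phc2* encodes a Polycomb repressive complex 1 subunit. The KO libraries bear the name knockout in title and source but heterozygote in the genotype field, and they are called KO here after the titles. *Phc2* itself is not among the 621 genes of the table, so no level of it was at hand to check the genotype. KO and WT mice were bred from heterozygotes, and the allele was thus not limited to endothelial cells. No label states whether each library came from its own mouse, and p-values then measure only the spread between these libraries.

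The marrow is drained by sinusoids, wide vessels with a thin and fenestrated endothelium, and fed by arterioles, whose endothelium is closed by tight junctions. VEGF binds the receptor encoded by *Kdr* (VEGFR2), the main driver of endothelial growth, and the related receptor encoded by *Flt4* (VEGFR3) is known from lymphatic vessels and from the sinusoids of the marrow. Endothelial cells are held to each other by VE-cadherin (*Cdh5*), claudin-5 (*Cldn5*) and the immunoglobulin-like molecule ESAM (*Esam*). These vessels form part of the niche of hematopoietic stem and progenitor cells and are the route by which they leave the marrow. Endothelial cells are a small share of BM cells, and the bulk level of such a gene cannot tell fewer cells of the type from less RNA per cell.

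Positions below are the outer bounds of RefSeq genes in the mouse genome build GRCm38. *Kdr* lies on chromosome 5 from 75932827 to 75979072, *Flt4* on chromosome 11 from 49609679 to 49652739, *Cdh5* on chromosome 8 from 104101613 to 104144504, *Cldn5* on chromosome 16 from 18776847 to 18778262 and *Esam* on chromosome 9 from 37528089 to 37538319. *Aplnr* lies on chromosome 2 from 85136360 to 85139923, *Gpihbp1* on chromosome 15 from 75596630 to 75598213, *Gpr182* on chromosome 10 from 127749602 to 127751798 and *Esm1* on chromosome 13 from 113209659 to 113218104. Their exons in GENCODE vM21, merged over transcripts, ranged from 1416 bases in *Cldn5*, a gene of 1 exon, to 9030 bases in *Kdr* with 29 merged exons. Exons of *Gpr182* overlapped those of *Zbtb39* on the opposite strand by 74 bases, and the sources used here do not say whether strand was used in counting.

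Promoters were at hand in RefSeq (GRCm38.p6) for 4 of the genes, each given as 250 bases before the transcription start and 50 bases after it. They are shown because Polycomb proteins are known to occupy promoters rich in CpG, and the 4 genes differ in this respect. The sequences run 5′ to 3′ on the strand of the gene, with each CpG dinucleotide in capitals. That of *Kdr* is chr5:75978406-75978705 (minus strand, at a start inside the outer bound of the gene), that of *Flt4* chr11:49609429-49609728 (plus), that of *Cldn5* chr16:18776597-18776896 (plus) and that of *Esm1* chr13:113209409-113209708 (plus).
Kdr: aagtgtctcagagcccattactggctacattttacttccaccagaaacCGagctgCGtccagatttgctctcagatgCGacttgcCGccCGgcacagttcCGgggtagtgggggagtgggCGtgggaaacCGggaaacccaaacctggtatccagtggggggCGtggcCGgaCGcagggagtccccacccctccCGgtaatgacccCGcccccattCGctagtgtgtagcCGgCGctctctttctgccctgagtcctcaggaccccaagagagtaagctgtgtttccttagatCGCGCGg
Flt4: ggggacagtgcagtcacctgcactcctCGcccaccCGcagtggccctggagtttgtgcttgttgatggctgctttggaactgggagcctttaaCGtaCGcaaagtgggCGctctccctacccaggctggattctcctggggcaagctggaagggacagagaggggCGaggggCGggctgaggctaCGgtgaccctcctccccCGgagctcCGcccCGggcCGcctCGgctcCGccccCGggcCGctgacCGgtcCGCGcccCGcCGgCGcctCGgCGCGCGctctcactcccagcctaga
Cldn5: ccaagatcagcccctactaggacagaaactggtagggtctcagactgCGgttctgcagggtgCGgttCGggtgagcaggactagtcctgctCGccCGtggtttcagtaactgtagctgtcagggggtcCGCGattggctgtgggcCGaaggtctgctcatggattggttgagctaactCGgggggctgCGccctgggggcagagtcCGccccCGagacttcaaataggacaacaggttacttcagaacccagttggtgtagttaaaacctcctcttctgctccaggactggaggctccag
Esm1: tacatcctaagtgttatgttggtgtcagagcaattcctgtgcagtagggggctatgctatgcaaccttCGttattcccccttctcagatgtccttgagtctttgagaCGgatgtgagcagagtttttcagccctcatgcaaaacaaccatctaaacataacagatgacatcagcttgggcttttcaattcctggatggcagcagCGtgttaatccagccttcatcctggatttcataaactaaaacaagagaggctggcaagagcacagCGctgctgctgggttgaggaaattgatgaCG
The promoter of *Flt4* held 26 CpG at 70.3% G+C, that of *Kdr* 19 CpG at 60.7% and that of *Cldn5* 12 CpG at 58.3%. The promoter of *Esm1* held 5 CpG at 46.3% G+C. Over 32851 promoters of the same length the median was 7 CpG and 52.7% G+C. 28.1% of them held 19 or more CpG and 43.6% held 5 or fewer. Motifs known for endothelial transcription factors were searched on both strands. The letters AGGAAG of ETS factors were held by 35.4% of all promoters. The letters AACAAT of SOX factors were held by 10.7% of them. The letters GATAAG of GATA factors were held by 7.4% of them. The letters TGTTTAC of forkhead factors were held by 3.6% of them. None of these words stood in the promoters shown (0 of 4). Chromatin was not measured in these libraries, so the sequences bear on no value below.

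Levels are given in FPKM, the fragments mapped per kilobase of exon, scaled to library size, that the authors computed for each library. The depth of the libraries was not determined, as no read counts were used here, so intervals for counting error cannot be had. The authors selected the genes of the table by fold on the same libraries. In their normalized log2 values, all 621 genes differed at least 2 fold between KO and WT in 1 or more of 9 pairs of libraries, so that every gene described here varies by selection. KO and WT were compared with limma on log2(FPKM + 1) over all 621 genes with Benjamini-Hochberg adjustment. The added 1 FPKM makes the differences of genes around and under this level smaller than those of FPKM itself. 3 libraries expressed *Xist*, the RNA of the inactive X chromosome of female cells, at 74.6 FPKM in KO4, 113 FPKM in WT1 and 98.2 FPKM in WT3. In KO8 and KO9 and WT7, *Xist* did not exceed 0.0192 FPKM. The libraries are called *Xist*-high and *Xist*-low below. This division comes from the data and not from the labels, it is unbalanced between KO and WT, and it is used for within-class values without a test. Among markers of the labelled tissue, the erythroid gene *Hbb-bs* (480 to 1193 FPKM) and the B-cell gene *Cd79b* (186 to 486 FPKM) were high in all 6 libraries, far above any of the 10 endothelial genes.

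All 10 endothelial genes had a lower mean in KO than in WT BM cells, and none differed beyond the spread between the libraries. KO levels were on average between 0.327 and 0.787 of WT levels, as a ratio of mean FPKM. The median difference of KO minus WT was -0.66 on log2(FPKM + 1) over the 10 genes, against -0.35 over all 621 genes, of which 61.8% had a lower mean in KO. At an adjusted p under 0.05 (limma) 0 of the 10 were called, as were 0 of the 621 (0% called), and the adjusted p of the 10 ran from 0.598 to 0.668. Their unadjusted p ran from 0.104 to 0.543, while 6 genes of the table (0.966%) were lower in KO at an unadjusted p under 0.05 and 8 were higher. In no member did all KO libraries lie below all WT libraries, a pattern seen in 1.29% of the table. The *Xist*-high libraries lay above all *Xist*-low libraries in all 10 members, against 28.2% of the table. It follows that WT7 lay below KO4 in each of them. With a term for *Xist* above 1 FPKM in the model the median difference was -0.34, with a pseudocount of 0.1 it was -1.03, and without WT7 it was -1.09.

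**Figure D1:**
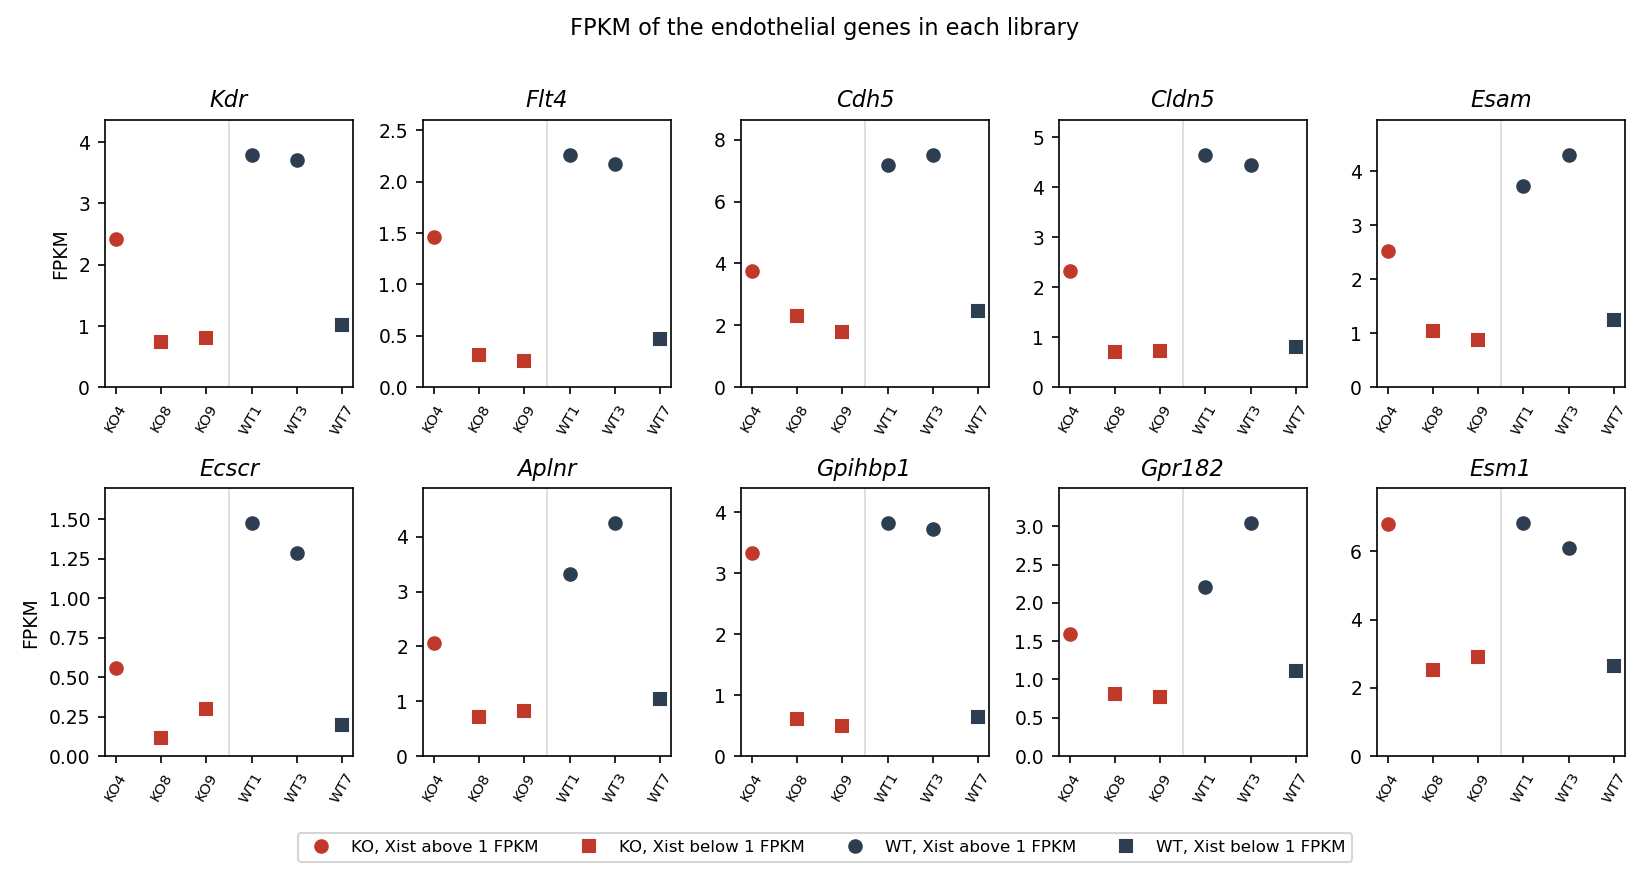
FPKM (linear axes, each starting at 0) of the 10 endothelial genes in the 6 libraries, with KO in red and WT in dark blue, circles for libraries with *Xist* above 1 FPKM and squares for the others; 1 point is 1 library. In each panel the circles (KO4, WT1 and WT3) lie above the 3 squares, and KO4 lies below WT1 and WT3 in all panels but that of *Esm1*.

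The VEGF receptors had like profiles over the libraries, and neither passed the test. *Kdr* was at 2.41, 0.747 and 0.808 FPKM in KO4, KO8 and KO9 and at 3.80, 3.71 and 1.03 FPKM in WT1, WT3 and WT7. The 2 highest libraries were WT, but WT7 lay below KO4, so the groups overlapped. The mean was 1.32 ± 0.946 FPKM for KO against 2.85 ± 1.58 FPKM for WT (SD over n = 3 libraries), a difference of -0.70 on log2(FPKM + 1) with a standard error of 0.48 (adjusted p = 0.598 from limma). *Flt4* was at 1.46, 0.316 and 0.254 FPKM among KO libraries, against 2.26, 2.17 and 0.473 FPKM among WT libraries. Its order of libraries resembled that of *Kdr*, with KO4 in the gap between both *Xist*-high WT libraries and the *Xist*-low libraries. The mean of *Flt4* was 0.677 ± 0.680 FPKM in KO and 1.64 ± 1.01 FPKM in WT, a difference of -0.64 with a standard error of 0.46 (adjusted p = 0.598 from limma). Both KO8 and KO9 lay below WT7 for both receptors, and their mean was 75.8% of WT7 for *Kdr* and 60.3% for *Flt4*. KO4 was at 64.3% of the mean of WT1 and WT3 for *Kdr* and at 66.0% for *Flt4*. The level of *Flt4* relative to *Kdr*, a ratio of FPKM within a library, lay between 0.584 and 0.605 in the *Xist*-high libraries and between 0.314 and 0.461 in the others. It was 0.448 ± 0.147 in KO and 0.547 ± 0.0746 in WT, which overlapped. *Nrp2*, a coreceptor of VEGF family ligands, was the only gene found of 16 ligands and receptors of the VEGF, angiopoietin and apelin families. It was at 3.09, 1.48 and 1.63 FPKM among KO libraries, against 4.54, 4.43 and 1.89 FPKM among WT libraries, the same layout as both receptors (difference -0.57, standard error 0.46, adjusted p = 0.598 from limma).

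As a group, the junction genes had the largest difference of means on log2(FPKM + 1) among the endothelial groups. This ranking did not hold with a pseudocount of 0.1. The differences were then -1.01, -1.21 and -0.98 for *Cdh5*, *Cldn5* and *Esam*. They were -1.25 and -0.91 for *Flt4* and *Gpr182* and -1.04 and -1.18 for *Kdr* and *Ecscr*. In the *Xist*-low class the difference was -0.16 for junction and -0.22 for sinusoidal genes. *Cdh5* encodes VE-cadherin, the cadherin of endothelial adherens junctions. It was at 3.75, 2.30 and 1.78 FPKM in KO4, KO8 and KO9 and at 7.19, 7.52 and 2.47 FPKM in WT1, WT3 and WT7. KO8 and KO9 were thus below the lowest WT library, and only KO4 was above it. KO and WT differed by -0.83 with a standard error of 0.49 (limma, adjusted p = 0.598). *Cldn5*, encoding the tight junction claudin of endothelium, was at 2.32, 0.703 and 0.723 FPKM among KO libraries, against 4.65, 4.45 and 0.816 FPKM among WT libraries. WT1 and WT3 stood apart at about the same level, whereas WT7 was close to KO8 and KO9. The mean was 1.25 ± 0.929 FPKM in KO and 3.30 ± 2.16 FPKM in WT, a difference of -0.84 (standard error 0.50, adjusted p = 0.598 from limma). *Esam*, whose product joins endothelial cells and is also present on platelets and hematopoietic stem cells, was at 2.53, 1.04 and 0.870 FPKM among KO libraries, against 3.72, 4.31 and 1.24 FPKM among WT libraries. The layout was again the same, with a difference of -0.69 and a standard error of 0.47 (limma, adjusted p = 0.598). KO4 was at 51.0% of WT1 and WT3 for *Cdh5*, 51.1% for *Cldn5* and 62.9% for *Esam*. KO8 and KO9 were closer to their WT library, at 82.6%, 87.4% and 77.2% of WT7. Relative to *Cdh5*, the FPKM of *Cldn5* was 0.591 to 0.647 in the *Xist*-high libraries and 0.306 to 0.406 in the others. This ratio did not overlap between the classes, but *Cldn5* was at only 0.703 to 0.816 FPKM in the *Xist*-low libraries. How many other pairs of genes separate the classes was not determined. *Esam* relative to *Cdh5* was 0.517 to 0.674 and 0.454 to 0.502. The 3 junction genes were the whole of the genes that the deposited annotation places in the bicellular tight junction, 3 of 11 in leukocyte transendothelial migration and 3 of 18 among cell adhesion molecules. The other 8 genes of leukocyte transendothelial migration had a median difference of 0.09, with 4 of 8 lower in KO. Of the other 15 cell adhesion genes, 13 had a higher mean in KO, against 237 of all 621 genes, and their median difference was 0.66. In 5 of these 15 genes all KO libraries lay above all WT libraries, as in 37 of all 621 genes. Of 15 further junction genes listed, *Cdh2*, encoding N-cadherin, was in the table, at 1.00, 0.438 and 0.431 FPKM among KO libraries, against 2.19, 1.58 and 0.428 FPKM among WT libraries.

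*Gpr182* encodes an atypical chemokine receptor of sinusoidal endothelium. It was at 1.60, 0.808 and 0.766 FPKM in KO4, KO8 and KO9 and at 2.21, 3.04 and 1.11 FPKM in WT1, WT3 and WT7. WT3 was highest, and WT7 lay between KO4 and the other KO libraries. The mean was 1.06 ± 0.469 FPKM in KO and 2.12 ± 0.967 FPKM in WT, a difference of -0.57 (standard error 0.44, adjusted p = 0.598 from limma). *Gpr182* and *Flt4*, the sinusoidal pair, did not vary to the same degree. The ratio of the mean of the *Xist*-high libraries to that of the *Xist*-low libraries was 2.55 for *Gpr182* and 5.65 for *Flt4*. Thus *Gpr182* relative to *Flt4* was 0.978 to 1.40 in the *Xist*-high libraries and 2.35 to 3.01 in the others. In the *Xist*-low libraries *Flt4* was at only 0.254 to 0.473 FPKM, so both ratios rest on low values at unknown depth. The sinusoidal scavenger receptor *Stab2*, the single gene in the table of 8 further sinusoidal genes listed, was at 3.42, 1.14 and 1.40 FPKM among KO libraries, against 4.27, 3.91 and 0.959 FPKM among WT libraries. In contrast to *Gpr182* and *Flt4*, both *Xist*-low KO libraries were above WT7 for *Stab2*.

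The remaining members were uneven. *Ecscr*, encoding an endothelial cell surface sialomucin of chemotaxis, had the lowest mean of the 10 genes. The gene lies on chromosome 18 from 35713086 to 35722413, and its exons overlapped those of *1700066B19Rik* on the opposite strand by 62 bases. It was at 0.560, 0.114 and 0.297 FPKM among KO libraries, against 1.48, 1.29 and 0.200 FPKM among WT libraries. KO4 was at 40.5% of WT1 and WT3, the lowest such share of the 10 genes, but KO8 and KO9 lay on either side of WT7. KO and WT differed by -0.53 with a standard error of 0.43 (limma, adjusted p = 0.598). *Aplnr*, the apelin receptor of growing and venous vessels, was at 2.06, 0.705 and 0.826 FPKM among KO libraries, against 3.33, 4.25 and 1.04 FPKM among WT libraries. Each KO library was below the WT libraries of its own *Xist* class, and KO and WT differed by -0.76 with a standard error of 0.47 (limma, adjusted p = 0.598). *Gpihbp1*, which carries lipoprotein lipase across capillary endothelium, was at 3.33, 0.610 and 0.496 FPKM among KO libraries, against 3.82, 3.72 and 0.640 FPKM among WT libraries. KO4 was near WT1 and WT3, at 88.3% of their mean, and the *Xist*-high libraries were 6.23 times the others, the largest such ratio of the 10 genes. *Lpl*, the lipase that *Gpihbp1* binds, was at 23.5, 9.82 and 9.18 FPKM among KO libraries, against 16.6, 16.9 and 8.27 FPKM among WT libraries, with KO above WT in both classes. *Esm1*, a secreted proteoglycan of sprouting tip cells that VEGF is known to induce, had the highest mean of the 10 genes. It was at 6.81, 2.51 and 2.91 FPKM among KO libraries, against 6.82, 6.09 and 2.64 FPKM among WT libraries. KO4 lay between WT1 and WT3, and WT7 lay between KO8 and KO9, so KO and WT were intermixed within both classes. For *Esm1* KO and WT differed by -0.30 with a standard error of 0.49 (limma, adjusted p = 0.668), the smallest difference of the 10, and it was 0.05 with a term for *Xist* above 1 FPKM.

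**Figure D2:**
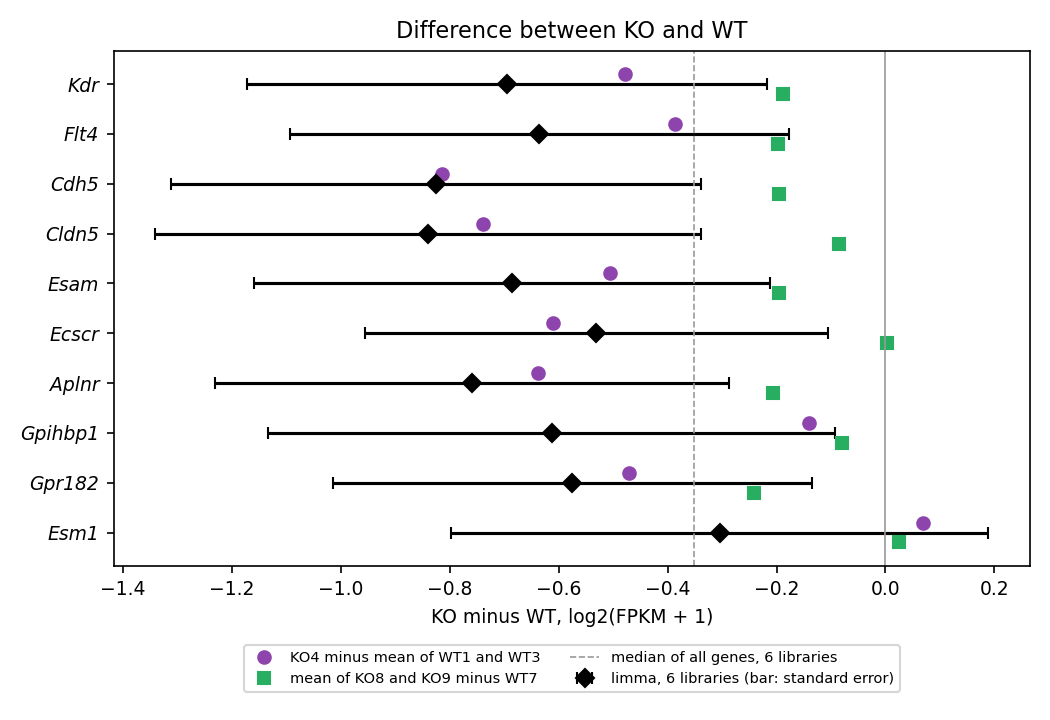
KO minus WT on log2(FPKM + 1) for the 10 endothelial genes. Diamonds are the limma difference over 6 libraries with its standard error as bars, circles are KO4 minus the mean of WT1 and WT3, squares are the mean of KO8 and KO9 minus WT7, and the dashed line is the median of all 621 genes in 6 libraries (-0.35); the squares lie nearer to 0 than the diamonds for all 10 genes.

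The direction was therefore examined within the *Xist* classes, where 1 KO library can be set against 2 WT libraries and 2 KO libraries against 1 WT library. KO4 was below both WT1 and WT3 for 9 of the 10 genes, against 54.6% of all 621 genes. KO8 and KO9 were both below WT7 for 8 of the 10 genes, against 23.7% of all genes. The 8 genes lower in both classes were *Kdr*, *Flt4*, *Cdh5*, *Cldn5*, *Esam*, *Aplnr*, *Gpihbp1* and *Gpr182*, against 12.7% of all genes. The 2 others were *Ecscr* and *Esm1*. For *Flt4*, *Cldn5* and *Gpihbp1* all *Xist*-low libraries were under 1 FPKM and the gaps were small. *Gpihbp1* was at 0.610 and 0.496 FPKM in KO8 and KO9 against 0.640 FPKM in WT7. The median difference of the 10 genes was -0.49 in the *Xist*-high class and -0.19 in the *Xist*-low class on log2(FPKM + 1), and that of all 621 genes was -0.29 and 0.09. The genes share libraries and vary together, each class rests on 1 library of a genotype, and these counts carry no test. The count of 8 was the same after quantile normalization (12.2% of all genes) and with the normalized log2 columns of the authors (14.2%). It was 7 after scaling to the same median (12.9%), 9 without KO9 (19.2%) and 8 without KO8 (20%).

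**Figure D3:**
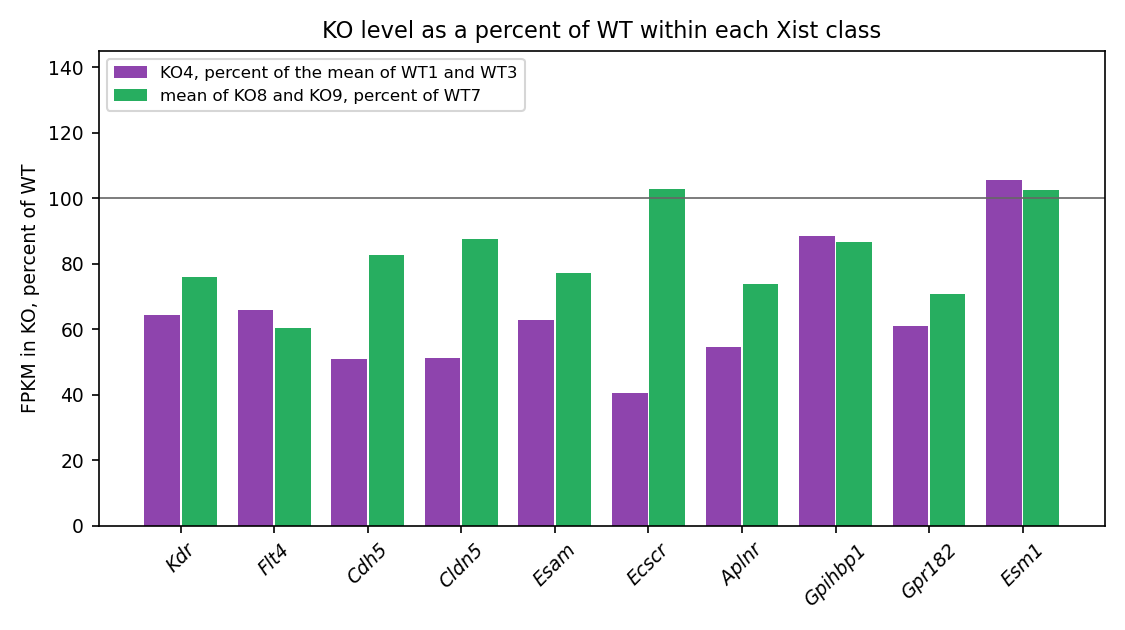
FPKM in KO as a percent of WT (linear axis from 0) for the 10 endothelial genes within each *Xist* class; purple bars are KO4 against the mean of WT1 and WT3, green bars the mean of KO8 and KO9 against WT7, and the line marks 100%. Purple bars run from 40.5% (*Ecscr*) to 106% (*Esm1*), green bars from 60.3% (*Flt4*) to 103% (*Ecscr* and *Esm1*).

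Sinusoidal genes were then set against junction and pan-endothelial genes within each library. The mean log2(FPKM + 1) of *Flt4* and *Gpr182* minus that of *Cdh5*, *Cldn5* and *Esam* was -0.59, -0.55 and -0.48 in KO4, KO8 and KO9 and -0.90, -0.81 and -0.45 in WT1, WT3 and WT7. WT7 lay above all KO libraries, so the groups overlapped. The mean was -0.54 ± 0.06 in KO and -0.72 ± 0.23 in WT (SD, n = 3 libraries each), so that sinusoidal relative to junction genes was 0.18 higher in KO, within the spread of WT. With a pseudocount of 0.1 this difference was -0.01, and without WT1 it was 0.09. It was 0.26 in the *Xist*-high class and -0.06 in the *Xist*-low class. Sinusoidal minus pan-endothelial genes (*Kdr* and *Ecscr*) was 0.08 ± 0.10 in KO and 0.07 ± 0.14 in WT, a difference of 0.01 that was far inside either spread. Without WT1 it was -0.07, and without KO9 it was 0.07. The vessel-type genes *Aplnr*, *Gpihbp1* and *Esm1* minus the junction genes gave 0.30, -0.08 and 0.08 in KO and -0.14, -0.16 and -0.07 in WT, where KO4 stood highest and KO8 overlapped the WT libraries. *Esm1* minus *Cdh5* on the same scale was 0.72, 0.09 and 0.49 in KO and -0.07, -0.27 and 0.07 in WT. Each KO library was above each WT library in this pair, but KO8 (0.09) only just above WT7 (0.07). The pair was chosen after its values were seen, and how many other pairs separate in this way was not determined.

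**Figure D4:**
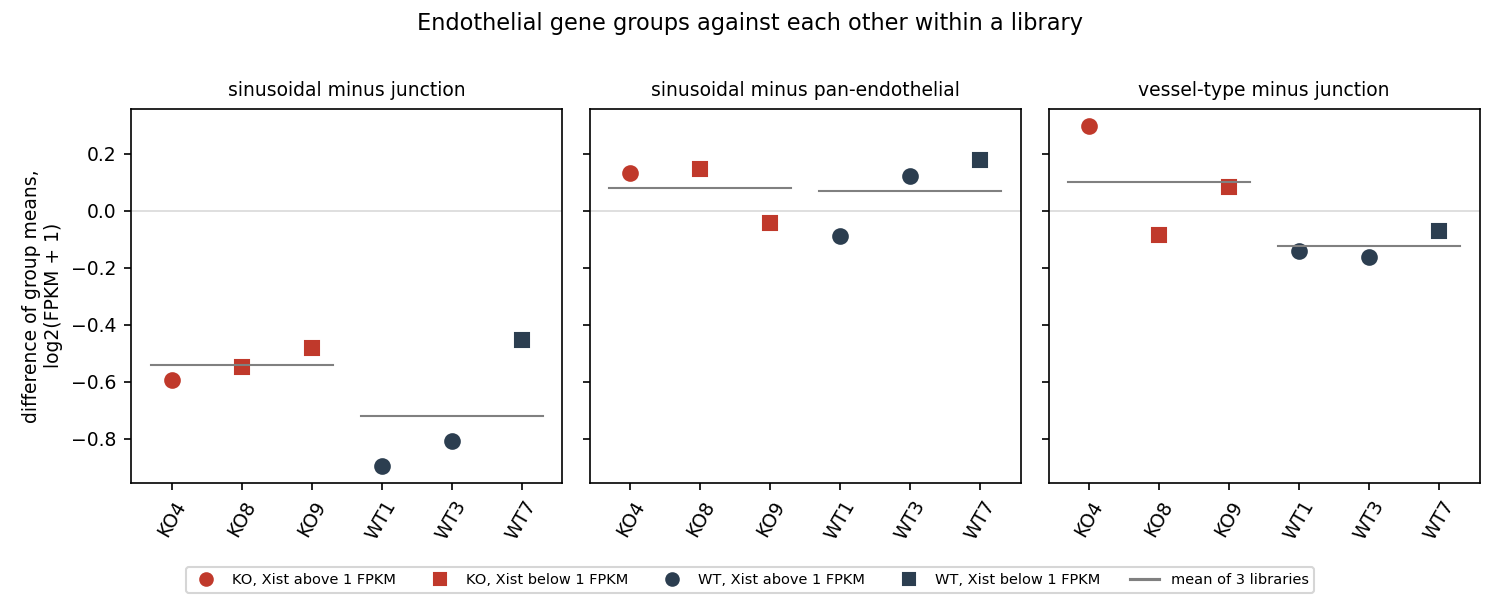
Difference between the mean log2(FPKM + 1) of 2 endothelial gene groups in each library, for sinusoidal minus junction, sinusoidal minus pan-endothelial and vessel-type minus junction genes; 1 point is 1 library and gray lines are means of 3 libraries. In the left panel WT7 (-0.45) lies above the KO libraries and WT1 (-0.90) and WT3 (-0.81) below them.

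Other endothelial genes followed the members in part. Of 29 further endothelial genes listed, 10 were in the table, 9 of them with a lower mean in KO and none past the test. Their median difference was -0.56. A lower mean in KO was seen in 61.8% of all 621 genes, whose median difference was -0.35. *Plvap*, the diaphragm protein of fenestrated endothelium, was at 8.05, 3.05 and 3.02 FPKM in KO4, KO8 and KO9 and at 13.3, 14.2 and 3.59 FPKM in WT1, WT3 and WT7. KO was below WT in both classes for *Plvap*, *Clec14a* and *Mmrn2*, 3 of these 10 genes against 8 of the 10 members and 12.7% of all 621 genes. *Cd93*, which myeloid cells and B-cell precursors express too, was at 20.0, 23.4 and 22.0 FPKM among KO libraries, against 43.3, 30.8 and 21.4 FPKM among WT libraries. *Ly6a* (Sca-1), shared by endothelium, stem cells and lymphocytes, was the exception with a higher mean in KO. It was at 26.7, 23.3 and 20.3 FPKM among KO libraries, against 14.4, 12.4 and 20.4 FPKM among WT libraries. *Pecam1*, *Eng* and *Vwf*, defining genes of endothelium, were not analysed here. *Mcam*, an adhesion molecule of endothelium and pericytes, had a difference of means of -0.08 (standard error 0.47, adjusted p = 0.916 from limma) but was higher in KO within both classes. It was at 4.34 FPKM in KO4 against 3.76 and 3.68 FPKM in WT1 and WT3, and at 1.62 and 2.40 FPKM in KO8 and KO9 against 1.49 FPKM in WT7. None of the 13 arterial genes listed was in the table. As the table holds only genes selected by fold, absence from it gives no level, for these or for the further endothelial genes listed. Among 5 lymphatic genes only *Reln* was in the table, at 2.14, 2.20 and 2.08 FPKM among KO libraries, against 7.67, 4.23 and 1.53 FPKM among WT libraries.

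Osteoblast, chondrocyte and mesenchymal reticular markers moved with the endothelial genes over the libraries. Of the smooth muscle and pericyte genes, *Kcnj8* and *Abcc9* did so too, but *Acta2* did not. The mean of *Acta2* was 3.42 FPKM in the *Xist*-high libraries and 5.36 FPKM in the others. All 16 osteoblast and chondrocyte genes found (25 were listed) and all 7 mesenchymal reticular genes found (18 were listed) were higher in each *Xist*-high library than in each *Xist*-low library. This held for 28.2% of all 621 genes. Summed over the list, the osteoblast and chondrocyte genes were at 740 to 1543 FPKM in the *Xist*-high libraries and at 125 to 172 FPKM in the others. The 7 reticular genes summed to 90.4 to 108 FPKM and 30.8 to 39.2 FPKM. The 10 endothelial members summed to 26.8, 39.3 and 40.6 FPKM in KO4 and WT1 and WT3, and to 9.85, 9.73 and 11.6 FPKM in KO8 and KO9 and WT7. The osteoblast and chondrocyte genes of highest level were *Col1a1*, *Col1a2*, *Bglap* and *Sparc*, and those of the reticular list *Adipoq*, *Igfbp5*, *Lpl* and *Dcn*. The 6 hematopoietic genes found, of 21 listed, summed to 2205 to 2521 FPKM, a sum made up mostly of the hemoglobin genes *Hba-a1* and *Hbb-bs*, and its members differed in direction. *Vpreb3*, a gene of B-cell precursors, was at 374 and 244 FPKM in WT1 and WT3 and at 121 to 184 FPKM in the other libraries. *Cd3e*, a T-cell gene, was at 1.11 and 1.65 FPKM in WT1 and WT3 and at 3.37 to 6.15 FPKM in the others, the opposite order. The platelet chemokine gene *Ppbp* had the layout of the endothelial genes, at 24.6, 7.78 and 9.30 FPKM among KO libraries, against 29.1, 32.5 and 11.6 FPKM among WT libraries. *Treml1*, another platelet gene, was also higher in each *Xist*-high library than in each *Xist*-low library, while *Gp1bb* was not. Blood lineages were thus not even across the libraries. Within the *Xist*-low class, which holds 1 WT library, the median difference was -0.19 for the members. It was -0.08 for the other endothelial genes and -0.07 for smooth muscle and pericyte genes. For osteoblast and chondrocyte genes it was 0.13 and for reticular genes 0.09, near the 0.09 of all 621 genes. For the 3 platelet genes found (7 were listed) it was -0.40. In the *Xist*-high class, which holds 1 KO library, the median difference was -0.49 for the members and -0.59 for the other endothelial genes. It was -0.55 for osteoblast and chondrocyte genes, -0.49 for smooth muscle and pericyte genes, -0.30 for platelet genes and -0.16 for reticular genes. Over all 621 genes it was -0.29. KO was below WT in both classes for 2 of the 16 osteoblast and chondrocyte genes, 0 of the 7 reticular genes and 3 of 3 smooth muscle and pericyte genes (*Acta2*, *Kcnj8* and *Abcc9*, of 12 listed). The share of all 621 genes was 12.7%, near that of the osteoblast and chondrocyte genes. For *Acta2*, KO4 (2.97 FPKM) lay only just below WT1 (3.04 FPKM). The part of the stromal and platelet content of a library in the endothelial values was not tested.

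**Figure D5:**
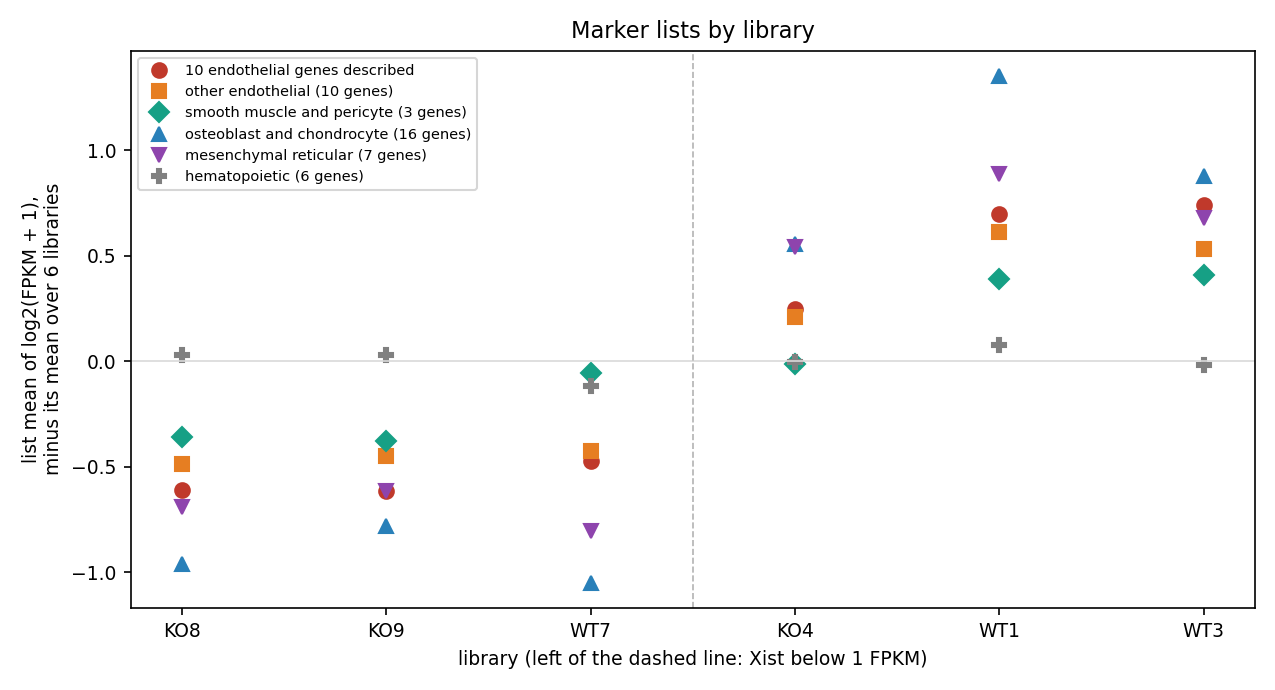
Mean log2(FPKM + 1) of marker lists in each library, minus the mean of the same list over the 6 libraries; *Xist*-low libraries are left of the dashed line. The 10 endothelial genes span -0.61 to 0.74, the osteoblast and chondrocyte genes -1.05 to 1.35 and the hematopoietic genes -0.12 to 0.08, a mean over genes that differed in opposite directions.

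Genes of like pattern were sought over all 611 other genes, by the root mean square difference of profiles of log2(FPKM + 1) over 6 libraries, each centered on its own mean. *Kdr* (0.03), *Flt4* (0.04) and *Esam* (0.08) were nearest to *Cdh11*, a cadherin of mesenchymal cells. *Cdh11* was at 2.62, 0.858 and 0.885 FPKM among KO libraries, against 3.81, 3.83 and 1.11 FPKM among WT libraries. *Cdh5* was nearest to the endothelial sialomucin *Emcn* (0.10), *Gpr182* to the endothelial lectin *Clec14a* (0.06) and *Aplnr* to *Ramp2* (0.09), which encodes the partner of the adrenomedullin receptor. *Cldn5* was nearest to the connexin gene *Gja1* (0.06), *Ecscr* to the collagen gene *Col12a1* (0.07), *Gpihbp1* to the collagen gene *Col6a1* (0.10) and *Esm1* to the creatine kinase gene *Ckb* (0.09). Among these 611 genes, endothelial genes were thus nearest for *Cdh5*, *Gpr182* and *Aplnr*, and *Cdh11*, a mesenchymal gene, for 3 members. With members counted too, *Esam* was nearest to *Flt4* (0.0752 against 0.0756 for *Cdh11*) and *Aplnr* to *Esam* (0.086 against 0.092 for *Ramp2*). For the other members the nearest gene stayed the same. These distances are descriptions over 6 libraries that fall into the *Xist* classes.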

How the data were processed

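RNA of BM cells was sequenced in 6 libraries. Per the methods and labels, the authors aligned reads to mm10 with HISAT2 2.0.5 and quantified them with StringTie 1.3.3b, and they deposited FPKM per gene and library. The deposited log2 values carry an unnamed normalization and served as an alternative. GO and KEGG sheets gave membership only. Folds and p-values of the authors were left aside. Read depth is unknown, and 0 columns went unmatched.

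KO and WT were compared by limma 3.58.1 (R 4.3.3, intensity trend, Benjamini-Hochberg, threshold 0.05) on log2(FPKM + 1), a pseudocount of 1, for genes above 0 in at least 3 libraries (all 621). The fit was tested on simulated data, drawn independently for each gene with a common SD. The simulation held no *Xist* classes, so it does not cover their imbalance between KO and WT. Python 3.11.15, pandas 2.3.3 and numpy 2.4.6 gave the rest. Loci and promoters came from RefSeq, matched by gene ID or symbol, and merged exons from GENCODE vM21.

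Members and lists were chosen with earlier results of these data known. The rule for named genes took the members, *Xist*, the 4 genes of highest mean FPKM per list, and the nearest gene to each member; values are given for some of them only. *Cd3e*, *Mmrn2*, *Bmp4*, *Ephb4* and *Thbs1*, with the GO and KEGG terms, were chosen after their values were seen. Alternatives changed the pseudocount (0.1), filter, scaling, variance prior, threshold (0.01) and input, added a term for *Xist*, or left out each library.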

Additional observations from a re-analysis of the deposited data

How the results depend on the processing

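No gene of the 621 passed under any alternative with all 6 libraries, 14 genes were at an unadjusted p under 0.05 with the intensity trend and 14 without it (their overlap was not counted), and leaving out 1 library gave 0 to 1 genes (*Xist* without KO4 and *Atp6v0c-ps2* without KO9). No member passed under any of 13 alternatives (adjusted p from limma of 0.104 to 0.957), and of 129 member values 1 changed its sign, that of *Esm1* with a term for *Xist* (0.047). The median of the members ran from -1.09 to -0.45 when each library was left out in turn and was -0.52 with quantile-normalized values and -0.57 with libraries brought to a common median, while that of all genes shifted from -0.35 to -0.18 and -0.23. Sinusoidal against junction members was -0.0078 with a pseudocount of 0.1 and 0.09 to 0.31 when each library was left out. The count of members below WT in both *Xist* classes was 7 to 9, by alternatives chosen after seeing the data. The share of all genes ran from 12.2% to 20% over the same alternatives. The count could not be had without KO4 or WT7, the single library of its genotype in a class. No paired analysis was possible because the KO and WT libraries share no replicate number. Libraries of unknown depth, with 7 of the 10 genes below 1 FPKM in at least 2 of them, limit the precision.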

Other observations

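Among 11 genes that the deposited annotation places in sprouting angiogenesis, 3 were members. Of the other 8, KO was below WT in both *Xist* classes for 5, *Bmp4*, *Ephb4*, *Mmrn2*, *Ramp2* and *Thbs1*, against 12.7% of all genes, and none passed the limma test. *Ephb4*, the receptor of venous endothelium for ephrin-B2, was at 0.997, 0.205 and 0.333 FPKM in KO4, KO8 and KO9 and at 1.41, 1.63 and 0.341 FPKM in WT1, WT3 and WT7. *Thbs1*, encoding the angiogenesis inhibitor thrombospondin-1 of platelets and stroma, did not follow the endothelial layout. It was at 16.3, 25.4 and 28.4 FPKM among KO libraries, against 20.5, 21.7 and 91.6 FPKM among WT libraries, with WT7 standing apart. Over the 37 genes of angiogenesis that are not members, 27 had a lower mean in KO (median difference -0.47), where 61.8% of all genes did (median -0.35). KO was below WT in both *Xist* classes for 9 of these 37 angiogenesis genes. In 4 of them all KO libraries lay above all WT libraries, as in 37 of all 621 genes. Of the 5 genes of VEGF signaling that are not members, 3 had a higher mean in KO (median difference 0.25). KO was below WT in both classes for 0 of these 5. It was so for 2 of the 11 cell-cell junction genes that are not members (median difference -0.43). These terms were chosen after their values were seen.

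*Gp1bb*, a subunit of the platelet receptor for von Willebrand factor, was at 17.0 FPKM in KO4 and 14.2 FPKM in WT7, against 1.53 to 2.80 FPKM in the other 4 libraries. The smooth muscle actin gene *Acta2* was highest in WT7 at 7.89 FPKM, against 2.97 to 4.45 FPKM in the others. Neither pattern was tested.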
